A study of Arabidopsis thaliana with 4 samples.

Results

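Transposable element genes are annotations of the Arabidopsis genome that derive from transposons and retrotransposons. Of the 33476 annotations of TAIR9, the genome annotation release used for these data, 3882 were of this type, and 105 of them had a mean FPKM of at least 1 over the 4 mRNA-Seq libraries and are described here. FPKM is the number of sequenced fragments scaled to the length of the annotation and to the number of mapped fragments. The 105 genes were chosen by their measured mean FPKM, so their levels are given as a description, and only the comparison of tissues within them was tested. The members just inside the limit were AT3G21030 (mean FPKM 1.02) and AT3G44205 (1.04), and the annotations just outside it were AT2G22710 (0.983) and AT1G27285 (0.940).

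Transposable elements are held silent in plants by DNA methylation, by methylation of lysine 9 of histone H3 and by small RNAs that guide methylation to related sequences, and most of them lie in the heterochromatin around the centromeres. Retrotransposons copy themselves through RNA, whereas DNA transposons move through a transposase. Some elements have been taken over as ordinary genes of the host, such as the MUSTANG family, which derives from Mutator transposases. Sadhu elements are short retroelements of Arabidopsis that encode no protein.

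Dividing tissue comprised the meristem with the younger leaves, whereas the 4 to 6 oldest leaves were taken as non-dividing tissue. Both tissues were dissected from 4-week-old Columbia plants grown in short days (8 h light and 16 h dark, 20 to 22 °C) after 5 days of stratification at 4 °C in the dark. Every plant carried a GFP-tagged histone H3 gene under its own promoter, HTR5-GFP for the H3.3 variant in replicate 1 and HTR13-GFP for the H3.1 variant in replicate 2, so each tissue had 2 libraries from 2 lines and no library came from untransformed plants. Poly-A RNA was purified from 10 µg of total RNA, and RNA without a poly-A tail was not measured. With 1 library per line and tissue, p-values measure only the spread between these libraries.

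The study lists the mapped reads of each library, but the deposited values are FPKM without read counts per annotation, and no counting interval is given for a value. Summed FPKM lay between 700884 and 715002, and 13084 to 14269 annotations per library were listed at 0. Most markers followed the tissue labels. Of the tested genes of the shoot meristem and of cell division, 6 of 7 rose in dividing tissue, against 51.7% of all annotations tested. Of the tested genes of mature and ageing leaves, 4 of 7 fell, against 18.2%. Flower and pollen markers were at or near 0, with summed FPKM under 1 in every library, and of 4 root markers only SHR, which shoots also express, was tested. Over the 17967 annotations that reached the limit of 1, the log2 fold change of (FPKM + 1), dividing minus non-dividing, had a median of 0.38. After scaling of the libraries to a common median ratio against the average library, that median became 0.02, and values called rescaled are changes relative to this shift. Rescaled, 6 of the 7 meristem and division genes rose and 1 fell, CLV1, against 31.0% and 30.7% of all annotations. Of the 7 leaf genes 6 then fell and none rose. Log2 difference is used below for the same log2 fold change of (FPKM + 1).

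The summed FPKM of the 105 genes was 870.1 and 868 in the 2 dividing libraries and 793 and 721 in the 2 non-dividing libraries, which was 0.123% and 0.122% of all FPKM in dividing tissue, against 0.111% and 0.103% in non-dividing tissue. Of the other annotations of this type, 3564 were listed at 0 in all 4 libraries and 213 had a mean between 0 and 1. By comparison, 64.1% of protein-coding genes reached a mean FPKM of 1. The members lay mostly just above the limit, with a median of 2.78 against 11.4 for all annotations tested, and 75 of them had a mean under 5. A few genes held much of the total: the 10 most abundant members made up 50.3% and 49.1% of that sum in dividing tissue, against 56.9% and 52.7% in non-dividing tissue. Of the 105 genes, 80 had a mean of at least 1 in both tissues, 15 in dividing tissue only and 10 in non-dividing tissue only.

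The rule did not use position, and the members were spread differently from the other transposable element genes. Bins of 500 kb in which transposable element genes outnumbered protein-coding genes (TE-rich bins) held 61.3% of all 3882 transposable element genes but 21.0% of the members, 22 of 105. Within 1 Mb of the middle of the TE-rich core of a chromosome, the longest run of such bins, 11 of 1561 annotations were members (0.705%), and the share was 1.86% between 1 and 2 Mb, 3.48% between 2 and 5 Mb and 12.5% (45 of 360) beyond 5 Mb. Members also lay closer to protein-coding genes. The median distance to the nearest such gene was 820.0 bp for members and 6082 bp for all transposable element genes, and 59 of 105 members, against 18.1% of all transposable element genes, overlapped one or lay within 1 kb of it.

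**Figure D1:**
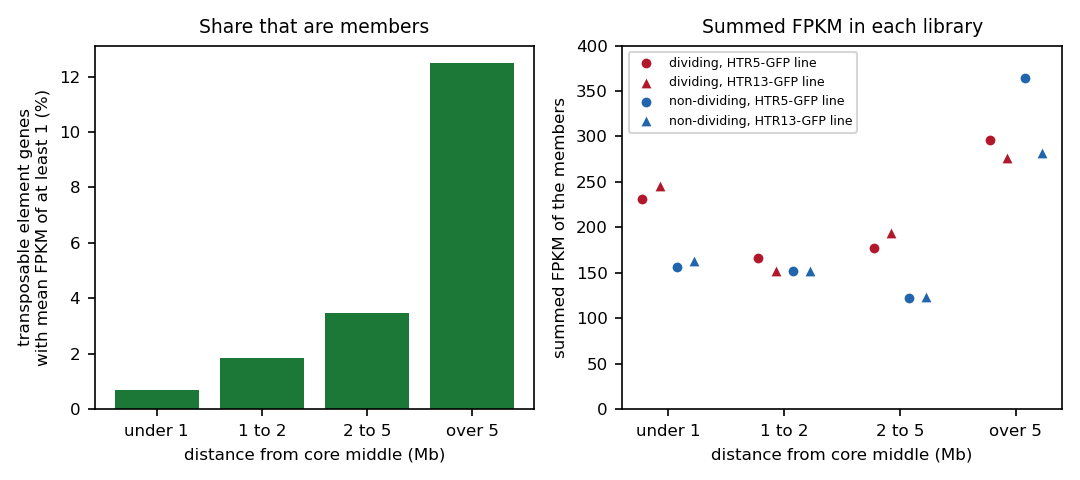
Transposable element genes by distance from the middle of the TE-rich core of their chromosome. The bars give the percentage of annotations that are members, from 0.705% under 1 Mb to 12.5% beyond 5 Mb, and the points the summed FPKM of the members in each library (red, dividing; blue, non-dividing; circles, HTR5-GFP line; triangles, HTR13-GFP line). Beyond 5 Mb the highest point is a non-dividing library, and that sum includes the member AT3G17050. Without this gene the sums beyond 5 Mb were 277 and 258 in dividing tissue, against 220 and 206 in non-dividing tissue.

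The members' sequences were also more often unique in the genome. In the TAIR10.1 assembly, a median of 98.7% of the 36-base stretches of a member occurred once, against 82.0% for all 3882 transposable element genes, and in 81 members the share was at least 90%. Reads from repeated copies cannot be placed with certainty, so annotations with few unique stretches can be under-counted, and the part of this in the difference was not tested. In 5 members, namely AT3G29120, AT5G27250, AT1G58889, AT1G59265 and SADHU5-1 (AT4G01525), under 50% of the stretches were unique, and their values can hold reads of other copies.

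The comparison of tissues asked which of these genes were transcribed differently in meristem and young leaves than in mature leaves. Among the 105 genes, 48 rose and 15 fell in dividing tissue (limma, Benjamini-Hochberg adjusted p under 0.05), and 42 were not called. The members called were 60.0%, against 69.9% of all annotations tested, and the direction followed the same order, with 45.7% of the members higher against 51.7% of all annotations and 14.3% lower against 18.2%. Among the 4687 annotations with a mean FPKM of 1 to 5, the range of most members, 67.4% were called, 52.8% higher and 14.6% lower, and of the 75 members in it 29 rose and 13 fell. Both dividing libraries lay above both non-dividing libraries in 60 members and below them in 20, against 62.2% and 24.8% of all annotations (87.0% in either direction). The median log2 fold change of the members was 0.30, under the median of 0.38 over all annotations. After rescaling the split was 22 higher and 21 lower, where 61.7% of all annotations were called, 31.0% higher and 30.7% lower, and the median was 0.02. Those 22 had all been called higher before rescaling, and all 15 lower calls were kept. With the line as a block 49 rose and 19 fell, where 74.3% of all annotations were called, 54.1% higher and 20.2% lower. Members that reached the limit through 1 tissue had to differ in that direction, and 13 of 15 through dividing tissue were called higher and 7 of 10 through non-dividing tissue were called lower. For such a member the values are given below as a description without a p-value. Of the 80 members with a mean of at least 1 in both tissues, 35 rose (43.8%) and 8 fell (10.0%). Fewer members were called with any single library left out, and fewest without a dividing library. The share of all annotations called in those fits was not computed. Without dividing replicate 1 or 2 the median log2 fold change of the members was 0.32 and 0.29, against 0.38 and 0.37 over all annotations. Without non-dividing replicate 1 or 2 it was 0.33 and 0.32, against 0.36 and 0.38. In whole leaves, fewer cells that transcribe an element and less RNA per cell cannot be told apart.

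**Figure D2:**
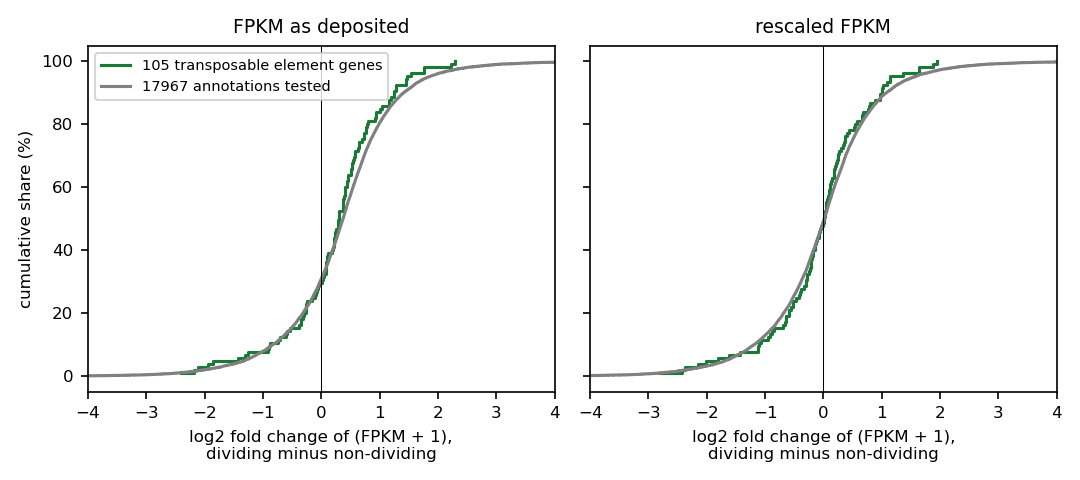
Cumulative distribution of the log2 fold change of (FPKM + 1), dividing minus non-dividing tissue, for the 105 members (green) and the 17967 annotations tested (grey), as deposited (left) and after rescaling (right). The curves run close together: the medians are 0.30 for members and 0.38 for all annotations on the left, and 0.02 for both on the right.

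Among the 80 members with a mean of at least 1 in both tissues, 9 stayed called higher and 1 stayed called lower under both scalings, with quantile normalization, with the line as a block, with a pseudocount of 0.1, without a filter and without any single library. A minimum of 1.5-fold was not among these settings. The share of all annotations that stayed called under the same settings was not computed, so these counts cannot be set against it. The genes called higher include SADHU4-1, MUG4, AT2G06950, AT3G43690 and AT4G07507, and the gene called lower was AT1G43590. The individual values of the most abundant members and of those that changed most are given next.

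AT2G06950 had the largest log2 fold change of (FPKM + 1), an order that depends on the pseudocount. With a pseudocount of 0.1 its value was 2.66, against 3.12 for AT5G27895, and SADHU5-1 and AT5G44255 were listed at 0 in mature leaves. The gene lies in the TE-rich core of chromosome 2 (2859226 to 2863434 in TAIR9, minus strand) and had an FPKM of 13.2 and 17.1 in dividing tissue, against 2.08 and 2.52 in non-dividing tissue. Its mean was 6.60-fold higher in dividing tissue, with a log2 fold change of 2.29 (SE 0.15, limma adjusted p = 4.36e-04) and of 1.95 after rescaling. AT3G43690 on chromosome 3 (15598179 to 15600798), 2.10 Mb from the middle of the core, had 17.9 and 21.2 in dividing tissue, against 3.07 and 3.70 in non-dividing tissue. The increase was 5.77-fold (log2 fold change 2.23, SE 0.13, limma adjusted p = 3.51e-04, rescaled 1.88). In both genes the lowest dividing library was several times the highest non-dividing library. The nearest protein-coding gene of AT3G43690, BPM6 at 1070 bp, had 7.49 and 7.11 in dividing tissue, against 6.02 and 5.91 in non-dividing tissue.

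A member closely related to AT2G06950 went the other way. AT1G58561 shares 79.0% of 2298 aligned bases with AT2G06950, and its FPKM was 0.787 and 1.54 in dividing tissue, against 2.08 and 2.33 in non-dividing tissue (log2 difference -0.59, SE 0.20, limma adjusted p = 0.0472), a call that was lost with a pseudocount of 0.1 (0.0608). AT1G58561 lies whole within the protein-coding annotation AT1G58602 on the same strand of chromosome 1 (21748675 to 21753246), which itself had 17.6 and 23.9 in dividing tissue, against 29.2 and 39.4 in non-dividing tissue (log2 difference -0.70, limma adjusted p = 0.0308). Reads of the 2 annotations cannot be told apart where they overlap. The 150-base stretch in which the 2 elements were most alike shows how far they differ even there, at 19 positions, printed in capitals. Sequences here and further on are from RefSeq's TAIR10.1 assembly and annotation.
AT2G06950 (chr2:2862123-2862272, minus strand): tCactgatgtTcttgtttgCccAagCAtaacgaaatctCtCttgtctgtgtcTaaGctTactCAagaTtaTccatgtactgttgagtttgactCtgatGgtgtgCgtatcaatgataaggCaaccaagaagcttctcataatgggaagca
AT1G58561 (chr1:21749815-21749964, plus strand): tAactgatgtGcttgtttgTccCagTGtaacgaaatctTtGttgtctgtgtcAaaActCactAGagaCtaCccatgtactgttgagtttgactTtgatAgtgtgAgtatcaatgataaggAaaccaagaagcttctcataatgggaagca

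Among the other genes with the largest increases, AT5G44255 on chromosome 5 (17827733 to 17828292) had an FPKM of 2.59 and 2.20 in dividing tissue and was listed at 0 in both non-dividing libraries. AT5G27895 (chromosome 5, 9906058 to 9909700) had 2.43 and 2.53 in dividing tissue, against 0.149 and 0.251 in non-dividing tissue, with a log2 fold change of 1.54. Both reached the limit through dividing tissue alone. The protein-coding gene AT5G27890, 144 bp from AT5G27895, had 17.9 and 19.6 in dividing tissue, against 0.557 and 0.787 in non-dividing tissue. AT1G20390 (chromosome 1, 7065494 to 7071561) had 10.8 and 7.52 in dividing tissue, against 3.51 and 1.89 in non-dividing tissue, with a log2 fold change of 1.48 (SE 0.27, limma adjusted p = 0.00660). This call was lost without dividing replicate 1 (0.0854) and without dividing replicate 2 (0.0535). AT4G07507, in the core of chromosome 4 (4309156 to 4310671), had 15.2 and 16.2 in dividing tissue, against 5.67 and 4.57 in non-dividing tissue (log2 difference 1.45, SE 0.12, limma adjusted p = 6.73e-04).

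**Figure D3:**
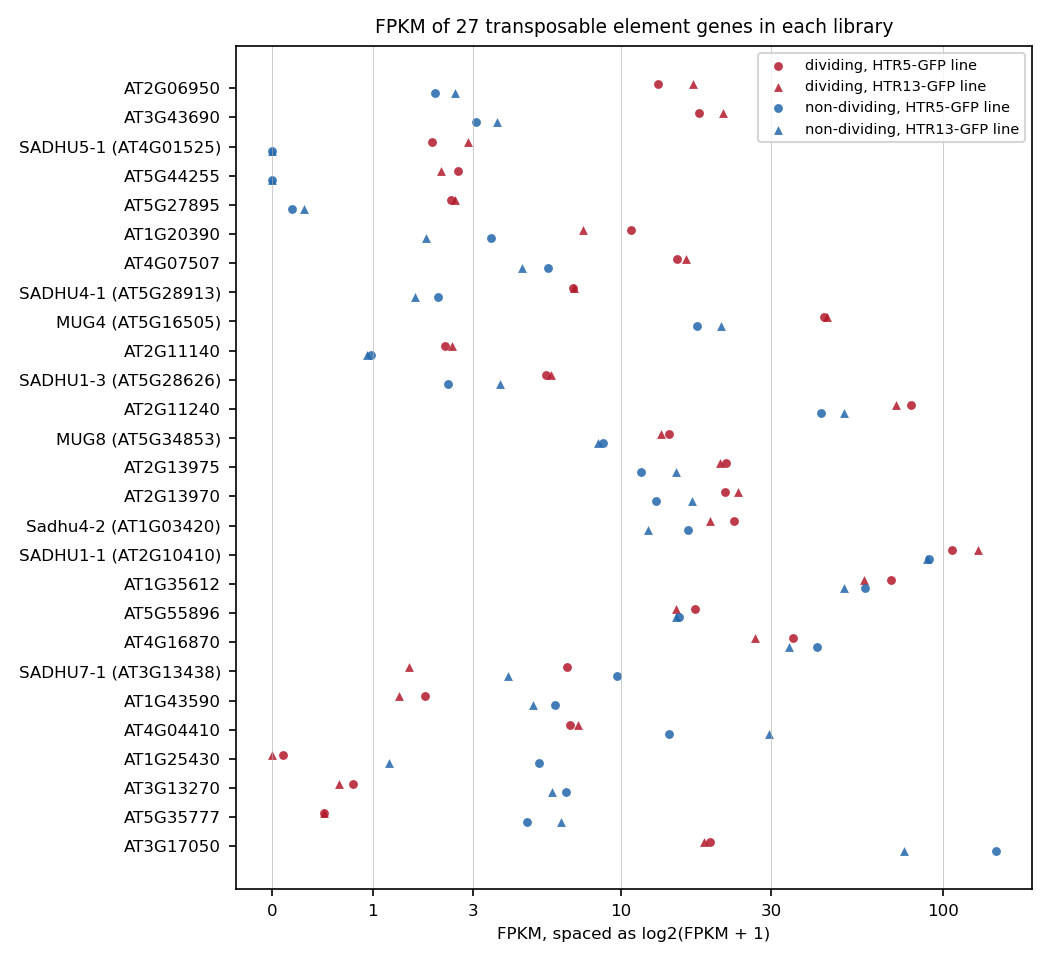
FPKM of 27 named transposable element genes in each library, ordered by log2 fold change from the largest increase in dividing tissue (top) to the largest decrease (bottom). Dividing libraries are red and non-dividing libraries blue, circles are the HTR5-GFP line and triangles the HTR13-GFP line, and the axis is spaced as log2(FPKM + 1). SADHU5-1 and AT5G44255 are at 0 in both non-dividing libraries, and AT3G17050 has the widest gap in the other direction.

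AT3G17050 had the lowest log2 fold change of (FPKM + 1), and it was the most abundant member of mature leaves in replicate 1. With a pseudocount of 0.1 its value was -2.46, and the lowest was -4.31 for AT1G25430. AT5G35777 had -3.39 and AT3G13270 -3.04 with that pseudocount, so this order too depends on the pseudocount. The gene lies on the arm of chromosome 3 (5814748 to 5816592), 7.68 Mb from the middle of the TE-rich core. Its FPKM was 19.3 and 18.6 in dividing tissue, against 144 and 76.0 in non-dividing tissue, a mean 5.82-fold higher in non-dividing tissue, and the log2 fold change was -2.41 (SE 0.30, limma adjusted p = 0.00201, rescaled -2.81). The dividing libraries were nearly equal, whereas the non-dividing libraries differed from each other. Without dividing replicate 2 the adjusted p was 0.0526. The reading frame from its ATG holds 224 codons before a stop, and 143 of them (63.8%) are of the form GGN, which encodes glycine. The printed start shows the GGN codons in capitals, 42 of 80.
AT3G17050 (chr3:5814748-5814987, plus strand): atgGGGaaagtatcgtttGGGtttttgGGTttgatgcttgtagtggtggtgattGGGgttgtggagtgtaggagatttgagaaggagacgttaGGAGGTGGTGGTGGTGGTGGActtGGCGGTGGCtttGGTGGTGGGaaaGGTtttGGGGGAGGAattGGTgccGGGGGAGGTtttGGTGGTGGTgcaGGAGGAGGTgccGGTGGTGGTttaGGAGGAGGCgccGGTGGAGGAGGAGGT

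A stretch of 648 bases inside AT3G17050, from base 664 to base 1311, had a GC content of 19.1%, between flanks of 60.0% and 56.7%. A run of 4 GGN triplets, on either strand, occurred in the first 240 bases of 2 of the 105 members and of 80 of 3851 transposable element genes at least that long (2.08%). The deposited value does not say from which stretch of the annotation the reads came.

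The other genes called lower were less abundant. AT5G35777 on chromosome 5 (13949228 to 13953802) had 0.431 and 0.436 in dividing tissue, against 4.76 and 6.29 in non-dividing tissue, 12.8-fold higher in non-dividing tissue. AT3G13270 on chromosome 3 (4285851 to 4288332) had 0.747 and 0.592 in dividing tissue, against 6.56 and 5.87 in non-dividing tissue, 9.28-fold higher in non-dividing tissue. In both genes the libraries of a tissue lay close together and the tissues far apart, and both reached the limit through non-dividing tissue alone. AT1G43590, in the TE-rich core of chromosome 1 (16414121 to 16414627), had 1.86 and 1.40 in dividing tissue, against 5.99 and 5.04 in non-dividing tissue (log2 difference -1.31, SE 0.14, limma adjusted p = 0.00139). AT4G04410 (chromosome 4, 2189515 to 2193763) had 6.79 and 7.19 in dividing tissue, against 14.3 and 29.4 in non-dividing tissue, and AT1G25430 (chromosome 1, 8927732 to 8933058) 0.0826 and 0 in dividing tissue, against 5.30 and 1.24 in non-dividing tissue. AT1G25430 reached the limit through non-dividing tissue alone, where most of its FPKM came from replicate 1. The log2 fold change of AT4G04410 was -1.43 (limma adjusted p = 0.0137), and the call was lost without dividing replicate 1 (0.136) and without dividing replicate 2 (0.126). AT4G04293 had an FPKM above 1 in a single library. This gene, chosen after its values were seen, had 0.834 and 0 in dividing tissue, against 13 and 0.944 in non-dividing tissue. Unlike the others of this paragraph, it was not called.

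Of the Sadhu elements, 10 of the 16 annotated had a mean FPKM of at least 1, whereas 2.70% of all transposable element genes did. The other 6 (SADHU3-1, 3-2, 5-2, 7-2, 8-1 and 9-1) were listed at 0 in every library apart from 0.388 for SADHU3-2 in non-dividing replicate 2. Of the 10 members, 7 were called higher and 1 lower, against 51.7% and 18.2% of all annotations. After rescaling 3 were called higher and 1 lower, against 31.0% and 30.7%. Both counts hold SADHU5-1 and SADHU10-1 as higher and SADHU6-1 as lower. These 3 genes reached the limit only through the tissue in which they were higher. The rule thus fixed their direction, and the counts cannot be set against the shares of all annotations. Summed over the 10, FPKM was 182 and 197 in dividing tissue, against 148 and 137 in non-dividing tissue, with a ratio of 1.33 as deposited and 0.997 after rescaling, which removes the difference. With 2 libraries against 2 the exact two-sided permutation test cannot give a p under 0.333, and it gave that value here.

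SADHU1-1 (AT2G10410, chromosome 2, 4005995 to 4007044), in the TE-rich core 0.26 Mb from its middle, was the most abundant of all 105 members. Its FPKM was 106 and 127 in dividing tissue, against 90.7 and 89.5 in non-dividing tissue. The tissues did not overlap, but the difference was small (log2 fold change 0.37, SE 0.12, limma adjusted p = 0.0375), and after rescaling it turned to -0.04 (limma adjusted p = 0.772). Without dividing replicate 2 the adjusted p was 0.122, and without non-dividing replicate 1 or 2 it was 0.0945 and 0.107. At one end the annotation overlaps AT2G10405, listed at 0, over 11.6% of its length. Its relatives followed at lower levels: SADHU1-2 (AT1G30835) had 16.2 and 17.6 in dividing tissue, against 13.1 and 13.8 in non-dividing tissue, and SADHU1-3 (AT5G28626) had 5.58 and 5.82 in dividing tissue, against 2.36 and 3.79 in non-dividing tissue. SADHU1-3 had a log2 fold change of 0.74 (limma adjusted p = 0.0198) but lost its call after rescaling (0.119), without dividing replicate 1 (0.135) and without dividing replicate 2 (0.151).

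SADHU1-1 and SADHU1-2 are similar over 788 aligned bases at 70.8%, in opposite orientation of their annotations. A 100-base stretch is shown to illustrate that reads of these abundant copies can be told apart, with the 24 differing bases in capitals.
SADHU1-1 (chr2:4006571-4006670, minus strand): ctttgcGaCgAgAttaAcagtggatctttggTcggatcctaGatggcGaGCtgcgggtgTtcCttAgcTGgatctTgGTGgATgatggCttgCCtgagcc
SADHU1-2 (chr1:10967411-10967510, minus strand): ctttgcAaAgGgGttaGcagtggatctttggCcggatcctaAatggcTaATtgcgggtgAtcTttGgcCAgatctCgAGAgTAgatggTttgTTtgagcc

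The largest Sadhu increases were in less abundant copies. SADHU4-1 (AT5G28913, in the TE-rich core of chromosome 5, 10933823 to 10934730) had an FPKM of 6.92 and 6.96 in dividing tissue, against 2.14 and 1.68 in non-dividing tissue, a 3.63-fold increase (log2 fold change 1.45, SE 0.12, limma adjusted p = 6.62e-04, rescaled 1.14). Its relative Sadhu4-2 (AT1G03420, on the arm of chromosome 1, 846664 to 847739) was more abundant and changed less, with 23.0 and 19.3 in dividing tissue, against 16.5 and 12.3 in non-dividing tissue (log2 difference 0.53, SE 0.17, limma adjusted p = 0.0377). The Sadhu4-2 call was lost after rescaling (0.501), without dividing replicate 1 (0.242), without dividing replicate 2 (0.123) and without non-dividing replicate 2 (0.109). Over 94.8% of its length Sadhu4-2 overlaps the protein-coding gene AT1G03410 on the other strand, which had 2.78 and 2.65 in dividing tissue, against 4.59 and 5.72 in non-dividing tissue. The library kit did not mark strand, so reads of the overlap cannot be assigned. The 2 copies share 83.1% of 830 aligned bases. Their most similar 150 bases are printed because copies this alike gave different values, with the 16 differing bases in capitals.
SADHU4-1 (chr5:10934466-10934615, minus strand): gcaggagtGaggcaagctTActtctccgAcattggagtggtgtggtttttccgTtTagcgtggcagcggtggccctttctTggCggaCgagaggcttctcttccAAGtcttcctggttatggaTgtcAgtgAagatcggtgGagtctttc
Sadhu4-2 (chr1:846941-847090, plus strand): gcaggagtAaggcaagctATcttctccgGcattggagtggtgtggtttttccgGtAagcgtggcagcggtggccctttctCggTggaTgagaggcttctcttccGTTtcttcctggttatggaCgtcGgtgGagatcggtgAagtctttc

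SADHU5-1 (AT4G01525, chromosome 4, 660810 to 661698) was listed above 0 in dividing tissue alone, with an FPKM of 2.00 and 2.86 there and 0 in both non-dividing libraries. It reached the limit through dividing tissue alone. Its relative SADHU5-2, with 83.7% identity over 756 bases, was listed at 0 in all 4 libraries. Only 34.2% of the 36-base stretches of SADHU5-1 are unique: TAIR10.1 holds a copy on chromosome 1 that is 99.1% identical over 745 bases and a copy on chromosome 4 that is 94.9% identical over 626 bases, neither of them in an annotation of the table. Reads of these copies may be counted here, which was not tested. The stretch most alike in SADHU5-1 and SADHU5-2 is printed with the 16 bases that differ between these annotations in capitals.
SADHU5-1 (chr4:661372-661521, plus strand): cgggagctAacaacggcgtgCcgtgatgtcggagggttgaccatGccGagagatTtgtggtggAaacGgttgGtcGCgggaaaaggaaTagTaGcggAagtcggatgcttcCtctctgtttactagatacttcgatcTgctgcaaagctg
SADHU5-2 (chr5:9957061-9957210, minus strand): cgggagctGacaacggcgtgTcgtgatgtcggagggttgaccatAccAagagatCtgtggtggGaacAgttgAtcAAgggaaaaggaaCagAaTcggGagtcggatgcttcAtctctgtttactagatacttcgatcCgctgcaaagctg

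SADHU10-1 (AT3G58865) had 1.77 and 2.65 in dividing tissue, against 0.503 and 0.349 in non-dividing tissue. SADHU6-1 (AT3G02515) had 0.906 and 0.826 in dividing tissue, against 2.46 and 1.68 in non-dividing tissue. Each reached the limit through the tissue in which it was higher. SADHU2-1 (AT1G35112) had 12.3 and 11.8 in dividing tissue, against 11.0 and 9.84 in non-dividing tissue and was not called (limma adjusted p = 0.126).

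SADHU7-1 (AT3G13438, chromosome 3, 4377061 to 4378171) was the member called between the lines, which cannot be told apart from the replicates. In the HTR13-GFP line its FPKM was 1.56 in dividing tissue, against 4.06 in non-dividing tissue, and in the HTR5-GFP line it was 6.62 in dividing tissue, against 9.72 in non-dividing tissue. The line comparison called it lower in the HTR13-GFP line (limma adjusted p = 0.0476), the only member called, where 0.223% of all annotations were called, 0.0724% higher and 0.150% lower in that line. It was not called with a pseudocount of 0.1. Between tissues it was not called (log2 fold change -0.74, SE 0.62, limma adjusted p = 0.327), but with the line as a block it was called lower in dividing tissue (limma adjusted p = 0.00383). The values need care, because 96.8% of SADHU7-1 overlaps the protein-coding gene AT3G13440 on the other strand, which had 19.4 and 21.3 in dividing tissue, against 9.03 and 13.5 in non-dividing tissue. Its relative SADHU7-2, 84.9% identical over 900 bases, was listed at 0 in all 4 libraries.

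**Figure D4:**
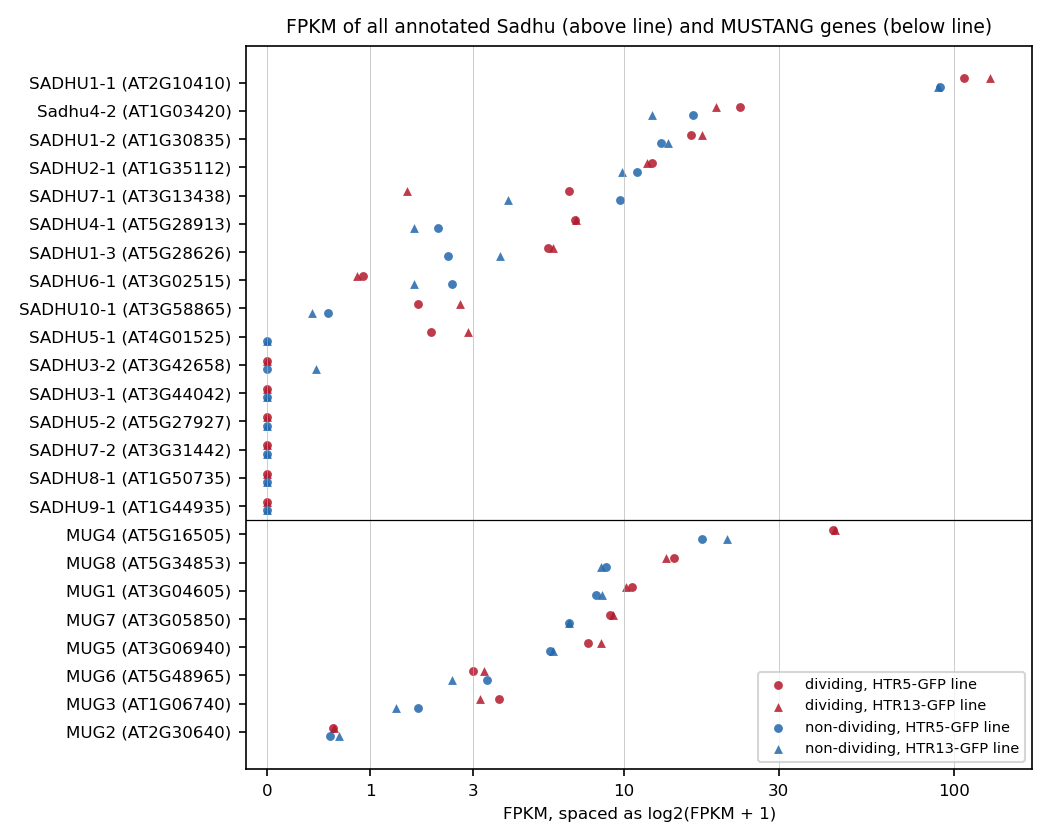
FPKM of all 16 annotated Sadhu elements (above the line) and all 8 MUSTANG genes (below the line) in each library, ordered within each family by mean FPKM. Dividing libraries are red and non-dividing libraries blue, circles are the HTR5-GFP line and triangles the HTR13-GFP line, and the axis is spaced as log2(FPKM + 1). The Sadhu elements span from 0 in every library to 127 for SADHU1-1, and MUG4 stands out among the MUSTANG genes in dividing tissue.

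The MUSTANG genes are annotated here as transposable element genes, although they are genes of the host. Of the 8, 7 were members, and MUG2 (AT2G30640) had a mean of 0.568. Of the 7, 6 rose in dividing tissue and none fell, against 51.7% and 18.2% of all annotations. After rescaling 2 of the 7 rose, MUG3 and MUG4, against 31.0% of all annotations. Summed over the 7, FPKM was 92.0 and 92.3 in dividing tissue, against 51.9 and 54.1 in non-dividing tissue, with a ratio of 1.74, or 1.31 after rescaling. Without MUG4 the ratio was 1.43 as deposited and 1.07 after rescaling. MUG4 (AT5G16505, chromosome 5, 5390006 to 5392383) was the most abundant, with 43.6 and 44.5 in dividing tissue, against 17.6 and 20.9 in non-dividing tissue, a 2.29-fold increase (log2 fold change 1.16, SE 0.11, limma adjusted p = 8.98e-04, rescaled 0.76). MUG8 (AT5G34853), the family member in the TE-rich core of its chromosome, had 14.3 and 13.6 in dividing tissue, against 8.74 and 8.44 in non-dividing tissue (log2 difference 0.64, limma adjusted p = 0.00259, after rescaling 0.0527). MUG3 (AT1G06740) had 3.75 and 3.19 in dividing tissue, against 1.75 and 1.38 in non-dividing tissue (log2 difference 0.80, limma adjusted p = 0.00523).

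Other genes derived from transposases lie outside the annotation type. DAYSLEEPER (AT3G42170), from a hAT transposase and needed for plant growth, had 39.5 and 42.3 in dividing tissue, against 22.9 and 26.1 in non-dividing tissue (log2 difference 0.72, limma adjusted p = 0.00294). Its relative CYTOSLEEPER (AT1G15300), a member, had 1.63 and 1.61 in dividing tissue, against 1.28 and 1.03 in non-dividing tissue and was not called (limma adjusted p = 0.10). Over a list of 13 such host genes, the MUSTANG family included, 10 of 12 tested rose and 1 fell. Over all annotations 51.7% rose and 18.2% fell. After rescaling 4 of the 12 rose and 1 fell, against 31.0% and 30.7% of all annotations.

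AT2G11240, in the TE-rich core of chromosome 2 (4477686 to 4483748), had an FPKM of 79.9 and 72.2 in dividing tissue, against 42.8 and 50 in non-dividing tissue, with a log2 fold change of 0.70 (SE 0.12, limma adjusted p = 0.00465). The call was lost after rescaling (0.0723) and without dividing replicate 1 (0.0606). AT2G11140, 0.67 Mb from the middle of the same core (4416608 to 4418539), had 2.29 and 2.45 in dividing tissue, against 0.978 and 0.919 in non-dividing tissue, and it reached the limit through dividing tissue alone. AT1G35612 (chromosome 1, 13145643 to 13146693), which RefSeq notes as a pseudogene of the Ulp1 protease family, had 69.8 and 57.7 in dividing tissue, against 58.0 and 50 in non-dividing tissue. AT5G55896 (chromosome 5, 22628017 to 22633342) had 17.4 and 15.1 in dividing tissue, against 15.5 and 15.1 in non-dividing tissue. In AT1G35612 and AT5G55896 the libraries of the tissues overlapped, and neither was called (limma adjusted p = 0.178 and 0.508).

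AT4G16870 on chromosome 4 (9483955 to 9488397) lies 69 bp from RPP4, a gene for resistance to downy mildew. It had 34.9 and 26.8 in dividing tissue, against 41.6 and 34.1 in non-dividing tissue, with a log2 fold change of -0.29 (SE 0.17, limma adjusted p = 0.175). It was lower in dividing tissue in each line, and with the line as a block it was called lower (limma adjusted p = 0.0305), as it was after rescaling (0.0222). RPP4 had 38.5 and 31.1 in dividing tissue, against 41.5 and 38.0 in non-dividing tissue (log2 difference -0.19, limma adjusted p = 0.233).

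AT2G13970 and AT2G13975, 90 bp apart on opposite strands of chromosome 2 (5862536 to 5864801 and 5864892 to 5865582), had similar values. AT2G13970 had 21.6 and 23.7 in dividing tissue, against 13 and 17.0 in non-dividing tissue (log2 difference 0.57, limma adjusted p = 0.0190). AT2G13975 had 21.7 and 20.8 in dividing tissue, against 11.7 and 15.1 in non-dividing tissue (log2 difference 0.64, limma adjusted p = 0.0114). Both calls were lost after rescaling (0.296 and 0.164) and without dividing replicate 1 (0.110 and 0.115) or dividing replicate 2 (0.158 and 0.101). With this pair included, there were 9 pairs of members next to each other and less than 5 kb apart, some of them sharing a member. The log2 fold changes had the same sign in all 9 pairs as deposited and in 8 after rescaling, and most members had a positive value as deposited. AT2G15810, AT3G21020 and AT3G21030, which are in some of these pairs, reached the limit through dividing tissue alone. The rule thus fixed their positive sign. AT3G21010, AT3G21020 and AT3G21030, in a row on chromosome 3, had log2 fold changes of 0.94, 1.28 and 0.77. AT5G34790 and AT5G34800 on chromosome 5 had -0.61 and -0.54. Of 48 members with a separate protein-coding gene within 1 kb, 32 had a neighbour that was tested. The log2 fold changes of member and neighbour had the same sign in 24 pairs, or in 20 pairs after rescaling. Spearman's rho across pairs was 0.49 and 0.51, a description over pairs that share the same 4 libraries. Some of these members, AT5G27895 and AT1G25430 among them, reached the limit through 1 tissue alone, which fixed their sign.

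AT1G58889 and AT1G59265 on chromosome 1 are identical at 4427 of 4428 aligned bases, and under 1% of their 36-base stretches are unique (0.794% and 0.819%). AT1G58889 had 2.22 and 2.00 in dividing tissue, against 2.95 and 2.97 in non-dividing tissue, and AT1G59265 had 2.29 and 2.01 in dividing tissue, against 3.01 and 2.99 in non-dividing tissue. Both were called lower with a log2 fold change of -0.35 (limma adjusted p = 0.0370 and 0.0403). Reads cannot tell these copies apart except at the base in capitals, T51C counted from the first printed base of AT1G58889, so the values amount to a single measurement.
AT1G58889 (chr1:21798402-21798502, minus strand): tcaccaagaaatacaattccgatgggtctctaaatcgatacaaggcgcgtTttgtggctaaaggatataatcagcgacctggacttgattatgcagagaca
AT1G59265 (chr1:21834660-21834760, minus strand): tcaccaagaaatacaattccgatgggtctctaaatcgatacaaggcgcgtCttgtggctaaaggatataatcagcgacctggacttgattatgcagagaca

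By position, members of the TE-rich bins and of the other bins were called in similar shares. In TE-rich bins 10 of 22 members rose (45.5%) and 3 fell (13.6%), and in the other bins 38 of 83 rose (45.8%) and 12 fell (14.5%). Over all annotations 51.7% rose and 18.2% fell. After rescaling, 4 of the 22 rose and 3 fell in TE-rich bins, and 18 of the 83 rose and 18 fell in the other bins. The shares over all annotations were then 31.0% and 30.7%. The median log2 fold change was 0.34 in TE-rich bins and 0.29 in the other bins.

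Summed FPKM differed more than the counts. In TE-rich bins the sum was 280.0 and 294 in dividing tissue, against 194 and 199 in non-dividing tissue, with a ratio of 1.46, or 1.10 after rescaling. In the other bins it was 590.1 and 574 in dividing tissue, against 599 and 522 in non-dividing tissue, with a ratio of 1.04, or 0.781 after rescaling. The libraries of the tissues did not overlap in TE-rich bins and overlapped in the other bins, where the overlap rested on AT3G17050. Without this gene the sum of the other bins was 571 and 555 in dividing tissue, against 455 and 446 in non-dividing tissue. Without AT3G17050 the ratio of the other bins was 1.25, or 0.941 after rescaling, and over all members it was 1.31 in place of 1.15. Without SADHU1-1 the ratio in TE-rich bins was 1.60, or 1.21 after rescaling. The TE-rich bins held 32.2% and 33.9% of the members' sum in dividing tissue, against 24.5% and 27.6% in non-dividing tissue. The exact two-sided permutation test over the 4 libraries gave p = 0.333, the smallest this design allows. AT3G17050, in the other bins, is part of the sum that these shares divide by. Without it the members' sum was 851 and 849 in dividing tissue, against 649 and 645 in non-dividing tissue, which narrows the gap in shares.

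**Figure D5:**
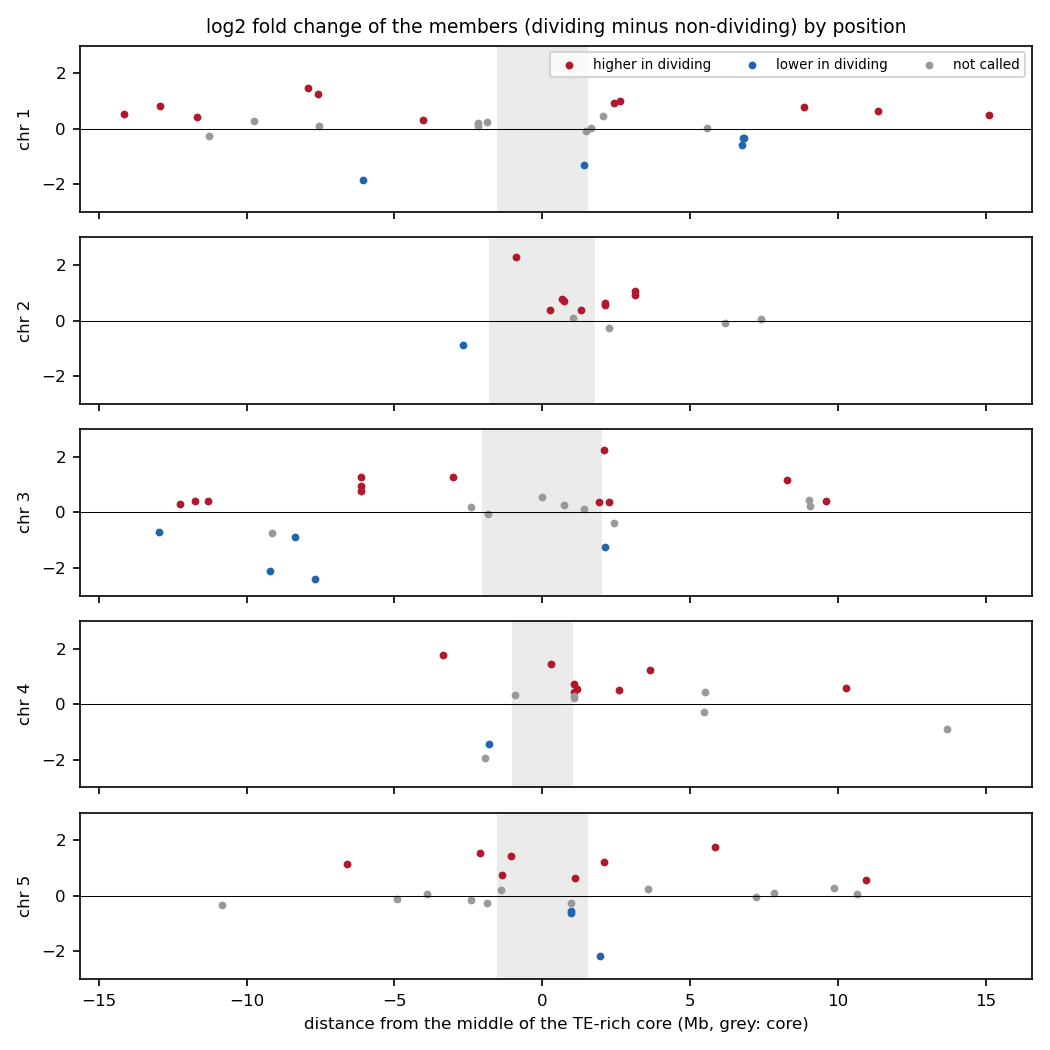
Log2 fold change of (FPKM + 1), dividing minus non-dividing tissue, for each of the 105 members against its distance from the middle of the TE-rich core of its chromosome in Mb. Grey bands mark the cores, red points genes called higher in dividing tissue, blue points genes called lower and grey points genes not called. Genes called in both directions lie inside and outside the cores.

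By chromosome, the ratio of the summed FPKM, dividing over non-dividing tissue, was 1.24 on chromosome 1, 1.47 on chromosome 2, 0.679 on chromosome 3, 1.03 on chromosome 4 and 1.37 on chromosome 5. After rescaling it was 0.934, 1.11, 0.511, 0.774 and 1.03 in the same order of chromosomes. Without AT3G17050 the ratio on chromosome 3 was 1.39, or 1.05 after rescaling.

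A list of 35 genes of DNA methylation and silencing, 4 of them DNA demethylases with the opposite activity, was compared in the same libraries. Of genes that maintain DNA methylation, 8 of 9 tested rose, of genes of RNA-directed DNA methylation 10 of 11, of other silencing genes 8 of 9 and of demethylases 3 of 3, and none of the 32 tested fell, against 51.7% higher and 18.2% lower over all annotations. After rescaling 25 of the 32 tested rose and 1 fell, SUVH9, against 31.0% and 30.7%. MET1, which maintains CG methylation, had 12.4 and 12.9 in dividing tissue, against 3.01 and 3.97 in non-dividing tissue (log2 difference 1.61, limma adjusted p = 6.49e-04). DDM1, a chromatin remodeller needed for methylation of heterochromatin, had 6.25 and 6.28 in dividing tissue, against 1.11 and 0.943 in non-dividing tissue (log2 difference 1.84, limma adjusted p = 3.46e-04). CMT3, which maintains CHG methylation, had 8.94 and 11.3 in dividing tissue, against 1.56 and 1.54 in non-dividing tissue, and AGO4, which binds small RNAs that guide methylation, 16.5 and 16.6 in dividing tissue, against 3.33 and 3.23 in non-dividing tissue. The demethylase ROS1 had 34.3 and 39.8 in dividing tissue, against 7.41 and 9.89 in non-dividing tissue. How the list relates to the members was not tested.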

How the data were processed

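Transcripts of 4 mRNA-Seq libraries, 2 of dividing and 2 of non-dividing Arabidopsis tissue, were analysed from the FPKM table that the authors deposited, with 1 value per TAIR9 annotation and library. The authors' processing notes name CASAVA 1.7, Bowtie 0.12.7, TopHat 1.2.0, SAMtools 0.1.13 and Cufflinks 0.9.3. How reads with several matches were weighted is not given in the sources used here. The study lists mapped reads per library, but FPKM are not counts, whole reads could not be recovered and the counts behind a value are not known.

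Members were the annotations of type transposable_element_gene with a mean FPKM of at least 1. The members and gene lists were chosen with earlier results of these data known. Log2(FPKM + 1) of the 17967 annotations with a mean of at least 1 was fitted with limma 3.58.1 (R 4.3.3, trended empirical Bayes), dividing minus non-dividing tissue, and p-values were adjusted over all of them by Benjamini-Hochberg, with a threshold of 0.05. The pseudocount understates changes of low genes. The replicate number is the transgenic line, so same-numbered libraries are paired. Deviations from the tissue means correlated within lines with r = 0.26 over all annotations tested and 0.50 over the members. Rescaling used the median of the ratios of a library to the average library, over 18569 annotations.

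Named genes were the 10 most abundant members, the 6 largest called changes in each direction that went the same way in both lines, up to 8 called members of TE-rich bins, members listed at 0 in both libraries of a tissue, members called between lines, and the 2 annotations on each side of the limit. Other genes named, among them further Sadhu and MUSTANG copies, AT4G04293, AT1G58561, AT1G58889 and AT1G59265 and the neighbouring members, were chosen after their values were seen. Strands, neighbours' names, sequences and similarity (BLAST 2.17.0) came from RefSeq's TAIR10.1, in which all 3882 transposable element genes had an entry, 102 of the members at the same coordinates. Element superfamilies are not given for most members and were not assigned. Alternatives were the pseudocount (0.1), no filter, the line as a replicate block, rescaling, quantile normalization, a 1.5-fold minimum, other member and bin definitions, members overlapping other annotations left out, and each library left out in turn. Leaving out members with few unique stretches, or the most abundant member of a set of bins, was added after the data were seen.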

Additional observations from a re-analysis of the deposited data

How the results depend on the processing

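As deposited, 48 members were called higher and 15 lower. Rescaling gave 22 and 21, quantile normalization 19 and 29, rescaling with the replicate block 26 and 27, and a 1.5-fold minimum 16 and 4. Over all annotations the shares higher and lower were 51.7% and 18.2% as deposited. They were 31.0% and 30.7% after rescaling and 32.1% and 29.2% with quantile normalization. For rescaling with the block, for the 1.5-fold minimum and for single libraries left out they were not computed. Without each library in turn, 22 to 41 were higher and 5 to 13 lower. The lower calls were 9 with a member limit of 2, 8 with a mean of at least 1 in both tissues, and 8 without members under 90% unique, which are fewer genes by construction. The replicate block alone gave 49 and 19, changed the calls of SADHU7-1, AT4G16870 and AT4G04293 and of no other gene named. In TE-rich bins (10 and 3), rescaling gave 4 higher, quantile normalization 5 and 6, rescaling with the block 6 higher, a 2 Mb distance 5 lower, and single libraries left out 6 to 7 and 1 to 4. In the other bins (38 and 12), rescaling gave 18 higher, quantile normalization 14 and 23, rescaling with the block 20 and 24, and single libraries left out 15 to 34 and 4 to 10.

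The median log2 fold change (0.30) was 0.42 with a pseudocount of 0.1, 0.016 after rescaling with or without the block, -0.12 with quantile normalization, 0.37 without members under 90% unique and 0.29 to 0.33 without single libraries. The summed ratio (1.15) turned to 0.864 after rescaling. The ratio of TE-rich bins (1.46) was 1.10 after rescaling, 1.28 within 2 Mb, 1.60 without overlapping members or without SADHU1-1, and 1.43 to 1.5 without single libraries. The ratio of the other bins (1.04) turned to 0.781 after rescaling, 0.985 within the HTR5-GFP line and 0.960 with 1 Mb bins, was 1.25 without AT3G17050, and ranged from 0.971 to 1.11 without single libraries. The call of SADHU7-1 between lines was lost with a pseudocount of 0.1 (0 members). SADHU1-1 turned to -0.040 after rescaling with or without the block, and AT5G55896 to -0.31 with both (limma adjusted p = 0.0330). The cause of these changes was not tested. Without counts, precision at low FPKM is unknown.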
